A study of Mus musculus with 5 samples.

Results

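The genes of the constitutive proteasome were followed in tumor-infiltrating CD8+ T cells of mice that received an antibody that blocks PD-L1, which restrains T cells through PD-1, or a control antibody. Members were all symbols that begin with Psma, Psmb, Psmc or Psmd and a number, apart from the interferon-inducible Psmb8, Psmb9 and Psmb10, with at least 10 counts summed over the libraries. Of 37 such symbols 36 qualified, out of 23337 genes listed, with 15 in the core (Psma, Psmb) and 21 in the cap (Psmc, Psmd). Psma8 had 9 counts in all and stayed out, and the member with the fewest counts, Psmb11, had 267. Of the 36, 31 encode subunits of the mature particle. The other 5 are no subunits of the mature constitutive particle. Psmd5, Psmd9 and Psmd10 encode assembly chaperones, Psmb11 a subunit restricted to the thymic cortex, and Psmc3ip a recombination factor that binds a proteasome ATPase.

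All 5 libraries came from OT-I CD8+ T cells of C57BL/6J CD45.1 OT-I donors aged 6 to 12 weeks, whose transgenic receptor recognises an ovalbumin peptide. The cells were activated in culture with anti-CD3 and anti-CD28, grown in interleukin-2, and transferred on culture day 5 or 6 into mice carrying B16-OVA, a melanoma line that makes ovalbumin. The 2 anti-PD-L1 libraries came from mice given clone 10F.9G2 and the 3 Control IgG libraries from mice given a rat IgG2b against KLH, both injected on days 3 and 6 after the cells, with 200 µg for every mouse. Live CD8+ CD45.1+ cells were sorted on day 8, or earlier if a tumor reached 1.2 cm, and each library holds cells pooled from several mice. How mice and days were divided among the pools is not given in the labels, so the spread between libraries may be partly technical.

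The proteasome degrades proteins tagged with ubiquitin. Its barrel-shaped core is built of outer rings of alpha subunits, which gate the entrance, and inner rings of beta subunits, of which Psmb5, Psmb6 and Psmb7 cut proteins. The cap recognises ubiquitin, removes it, and threads the unfolded protein into the core with a ring of ATPases. The inducible subunits Psmb8, Psmb9 and Psmb10 can take the places of Psmb5, Psmb6 and Psmb7. The resulting immunoproteasome cuts peptides for presentation to CD8+ T cells.

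Counts assigned to genes ran from 9985943 to 12830485 per library, and the 36 members took 0.865% to 1.13% of them. The libraries numbered 1 in both groups had fewer detected genes (11696 and 11977) than the other 3 (13564 to 13801), and their log2 CPM values correlated less with every other library across genes, at 0.907 to 0.936 against 0.973 to 0.977 among the other 3. Values without a library numbered 1 are therefore given below for the medians over the members, core, cap and pathway lists. They are also given for the member counts below 0 and below all controls. Medians within roles, and counts below 0 within roles, core, cap and lists, rest on all 5 libraries. The CD8+ T cell label fitted its markers, with Cd8a between 1404 and 2163 CPM (the read count scaled by library size with edgeR's TMM factors, as for all levels here) and all 8 T cell markers detected. Summed markers of melanoma cells ran from 4.38 to 288 CPM in controls and were 44.0 and 103 CPM after anti-PD-L1. Those of macrophages ran from 73.4 to 210.3 CPM in controls and were 78.0 and 113 CPM after anti-PD-L1, and those of dendritic cells ran from 130.1 to 366 CPM and were 121 and 226 CPM. For both of these lists the highest sum was that of Control IgG replicate 1, but single markers differed. Its dendritic sum came mostly from H2-Ab1, H2-Aa and Cd74, at 133, 88.0 and 132 CPM. Zbtb46 was highest there too, whereas Flt3, Xcr1 and Clec9a were not. Of the macrophage markers, Cd14 and Mrc1 were not highest there. In bulk samples fewer cells of a type and less RNA per cell cannot be told apart.

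Transcripts of the core stood above those of the cap when levels were set per kilobase of exon. Averaged over the 5 libraries, the median of the 14 core subunits of the mature particle was 293 CPM per kilobase and that of the 17 cap subunits was 134 CPM per kilobase. The ratio of these medians was 2.18, and it lay between 1.91 and 2.36 in every library. Psmb3, a structural beta subunit, had the highest level over all exons at 472 CPM per kilobase. With the length of the principal transcript alone Psma7 was highest, at 505 CPM per kilobase. The next were Psma7 at 391, Psmb6 at 384 and Psmb2 at 379.9 CPM per kilobase, whose ranges over libraries overlapped one another. Psmb1 was the lowest core subunit at 142 CPM per kilobase, but stood at 277 with its principal transcript, when Psma3 was lowest at 164. In the cap the ATPase Psmc5 led at 211 CPM per kilobase, followed by the deubiquitinase Psmd14 at 182, while with principal transcripts the lid subunit Psmd8 led at 221 CPM per kilobase. The lid subunit Psmd12 was lowest at 66.2 CPM per kilobase, beside the scaffold Psmd1 at 72.9 and the ATPase Psmc6 at 75.6, and with principal transcripts Psmd1 was lowest, at an unchanged 72.9, and Psmd12 stood at 92.1. Subunits that enter the particle in equal copy number thus differed up to 3.32-fold within the core and 3.19-fold within the cap by the length over all exons. The assembly chaperones lay lower, at 20.3 CPM per kilobase for Psmd9, 22.3 for Psmd5 and 43.2 for Psmd10. Gene length came from annotated exons, and no length was measured in these cells.

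**Figure D1:**
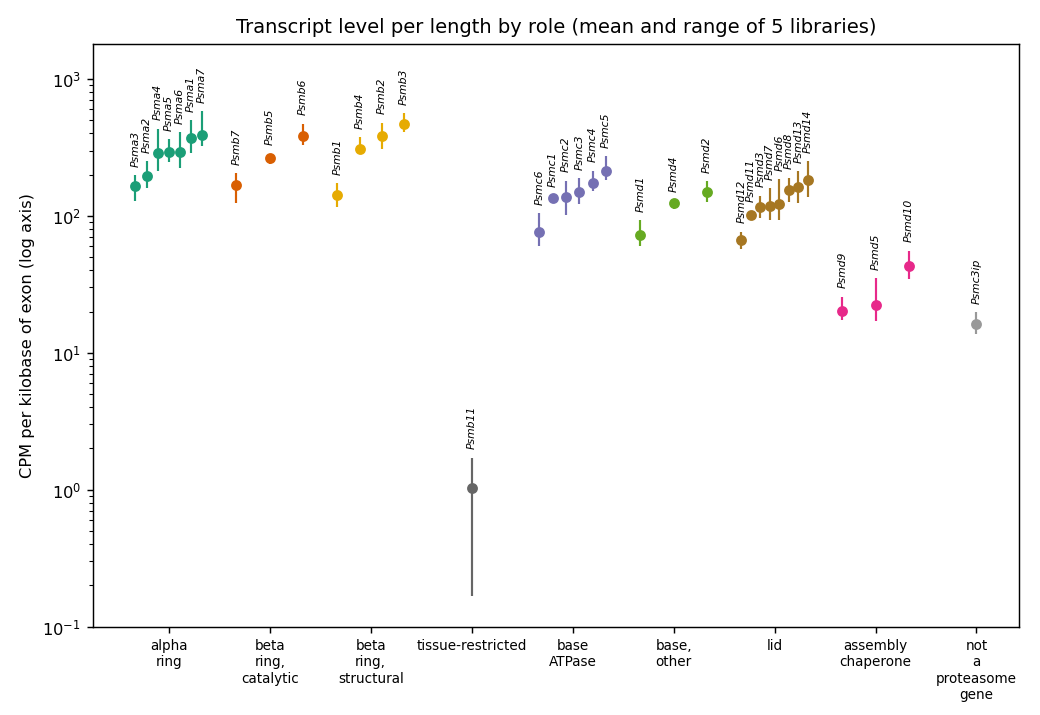
Level of each of the 36 members in CPM per kilobase of exon (log axis), grouped by role, where points are means over the 5 libraries and vertical lines run from the lowest to the highest library. Alpha and beta ring members lie mostly above base and lid members, assembly chaperones lie between 20.3 and 43.2, and Psmb11 lies near 1.03.

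Many members shared their highest and their lowest library. Control IgG replicate 1 was the highest of the 5 libraries for 29 of the 36 members, against 28.2% of all tested genes. These were 12 of 15 in the core and 17 of 21 in the cap. Anti-PD-L1 replicate 1 was the highest for 4 members, against 24.3% of all tested genes, and anti-PD-L1 replicate 2 for 0, against 15.9%. Control IgG replicate 2 was the highest for 2, Psmb11 and Psmd11, against 18.2%, and Control IgG replicate 3 for 1, Psmd4, against 13.4%. Over the members, Control IgG replicate 1 stood at a median of 1.34 times the mean of the other 2 controls, against 0.963 times over all tested genes. The ratio reached 1.96 for the assembly chaperone Psmd5, 1.79 for the alpha subunit Psma4 and 1.73 for the lid subunit Psmd6. It was 1.02 for the lid subunit Psmd11 and the ATPase Psmc1, 0.992 for the ubiquitin receptor Psmd4 and 0.110 for Psmb11. At the other end, anti-PD-L1 replicate 2 was the lowest library for 27 of the 36, against 14.0% of all tested genes.

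Control IgG replicate 1 was also the highest library for all 8 genes of the CCT chaperonin, which folds actin and tubulin, and for 76 of 81 tested ribosomal protein genes. It was the highest for none of the 3 inducible proteasome subunits, which were all highest in anti-PD-L1 replicate 1. Relative to the mean of the 5 libraries, the median core member stood at 0.32 on the log2 scale in Control IgG replicate 1, -0.02 and -0.20 in the other controls, 0.09 in the first anti-PD-L1 library and -0.23 in the other. For the cap the same medians were 0.36, -0.09, -0.09, 0.03 and -0.26. The groups thus overlapped for both parts, with the highest value in a control and the lowest after anti-PD-L1. The summed macrophage and dendritic cell markers were highest in Control IgG replicate 1 too, though not every marker was. Their part in the pattern was not tested. Both libraries numbered 1 had few detected genes and member medians above 0, and the part of detected genes in this pattern was not tested.

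**Figure D2:**
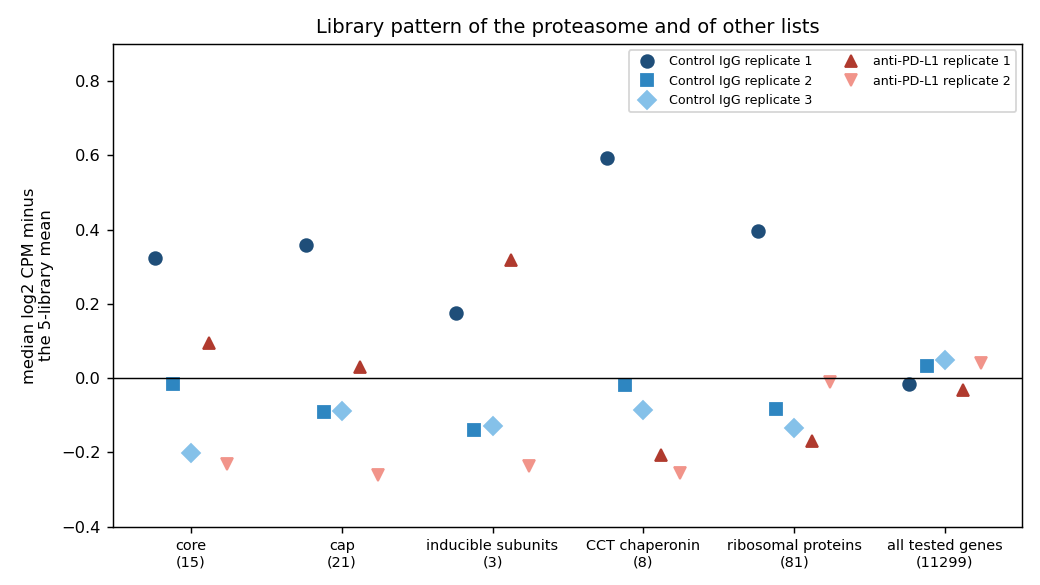
Median log2 CPM of each gene list minus the mean of the 5 libraries (vertical axis), with 1 point per library and the number of tested genes in brackets. Control IgG replicate 1 is highest for the core, the cap, the CCT chaperonin and the ribosomal proteins, whereas anti-PD-L1 replicate 1 is highest for the inducible subunits and all tested genes stay near 0.

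The bases before the members' start sites were searched for motifs known from proteasome and housekeeping genes. RefSeq promoters on GRCm38.p6 were found for 30 of the 36 members, and the 250 bases before each start were read on both strands. The core of the antioxidant response element, TGACNNNGC, through which the factor encoded by Nfe2l1 is known to raise proteasome genes, was present for 5 members (Psmb5, Psmb6, Psmc6, Psmd9 and Psmd12). It was in 15.6% of the 32 member promoters and 10.2% of all 32851 promoters. The ETS motif CCGGAAG was in 34.4% of member promoters and 6.91% of all, and of the 10 members that held it 9 were in the cap, Psmc3ip among them, where 18 of the 30 members with a promoter are cap genes. The palindrome bound by nuclear respiratory factor was in 18.8% against 3.74%, and the GC box GGGCGG in 53.1% against 32.7%. The other motifs searched were CCAAT at 40.6% against 33.8%, TATAAA at 9.38% against 12.4%, CACGTG at 6.25% against 6.02%, TGACTCA at 3.12% against 4.46%, and TGACGTCA at 0% against 1.55%. TGACTCA and TGACGTCA share their first 4 letters with TGACNNNGC, and matches can overlap. A match describes these letters and is not a measured binding site. The first 2 sequences below belong to catalytic subunits that hold the antioxidant core. The other 3 belong to cap members whose anti-PD-L1 values lay under all controls. Capitals mark the match on either strand, and each stretch ends before the annotated start in both RefSeq and GENCODE. They lie at chr14:54618023-54618245 (- strand), chr11:70525107-70525356 (+ strand), chr3:95042615-95042864 (- strand), chr11:80428365-80428614 (+ strand) and chr11:106255935-106256153 (+ strand), in that order, written 5′ to 3′ along the gene.
Psmb5: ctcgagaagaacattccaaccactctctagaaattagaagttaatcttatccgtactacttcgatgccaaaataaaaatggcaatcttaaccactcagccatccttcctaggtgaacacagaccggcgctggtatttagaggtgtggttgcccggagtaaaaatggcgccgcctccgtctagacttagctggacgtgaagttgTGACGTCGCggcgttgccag
Psmb6: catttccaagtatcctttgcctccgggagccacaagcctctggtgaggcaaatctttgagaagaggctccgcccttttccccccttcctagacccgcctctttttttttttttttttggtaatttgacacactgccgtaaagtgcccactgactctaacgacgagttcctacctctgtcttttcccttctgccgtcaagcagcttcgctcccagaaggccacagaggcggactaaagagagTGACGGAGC
Psmd4: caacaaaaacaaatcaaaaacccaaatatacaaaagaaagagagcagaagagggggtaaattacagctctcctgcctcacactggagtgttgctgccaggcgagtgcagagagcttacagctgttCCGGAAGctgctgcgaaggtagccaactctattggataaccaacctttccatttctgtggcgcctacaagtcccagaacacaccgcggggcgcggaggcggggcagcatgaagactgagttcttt
Psmd11: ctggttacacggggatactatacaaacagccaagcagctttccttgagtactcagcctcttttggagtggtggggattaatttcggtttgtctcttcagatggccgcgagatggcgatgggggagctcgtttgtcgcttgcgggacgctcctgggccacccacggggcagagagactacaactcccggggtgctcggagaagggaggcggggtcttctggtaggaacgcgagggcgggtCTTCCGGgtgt
Psmc5: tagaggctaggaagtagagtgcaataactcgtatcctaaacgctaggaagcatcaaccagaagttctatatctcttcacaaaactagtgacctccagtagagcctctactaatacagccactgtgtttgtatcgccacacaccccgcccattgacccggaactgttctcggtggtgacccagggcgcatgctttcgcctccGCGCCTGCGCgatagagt

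The comparison of anti-PD-L1 with Control IgG asked whether proteasome transcripts differ in T cells under PD-L1 blockade. No member passed an adjusted p of 0.05 in edgeR's quasi-likelihood test, nor did any of the 11299 genes tested (0%). All 36 members passed the filter on low counts and were tested. At an unadjusted p under 0.05 there were 0 members, against 1.19% of all tested genes higher and 0.947% lower. The smallest p among members was 0.119, for Psmd7. The median log2 fold change (anti-PD-L1 relative to Control IgG) was -0.13 over the members and -0.02 over all tested genes. It was below 0 for 30 of 36 members, against 51.9% of all tested genes. This lean depended on which libraries entered. The count was 17 of 36 without Control IgG replicate 1 (52.3% of all tested genes) and 16 without anti-PD-L1 replicate 2 (54.4%). It was 35 without anti-PD-L1 replicate 1 (50.4%) and 32, at a median of -0.16, without both libraries numbered 1 (52.4%).

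Core and cap had nearly equal medians, -0.12 for the core and -0.13 for the cap, and a difference of 0.01 that became 0.04 over subunits of the mature particle alone. Without Control IgG replicate 1 the medians were 0.04 and -0.04, and without anti-PD-L1 replicate 1 they were -0.30 and -0.33. Fold changes were below 0 for 11 of 15 core members and 19 of 21 cap members. Both anti-PD-L1 libraries lay below all 3 controls for 5 cap members and 0 core members, and above them for 0 members. Among all tested genes 9.58% lay below and 7.74% above in this way, so 5 of 36 is near the background. The 5 were Psmc1, Psmc5, Psmd4, Psmd7 and Psmd11, and whether core and cap differ in this count was not tested. The count stayed at 5, all in the cap, without Control IgG replicate 1, when 17.1% of all tested genes lay below. In that setting 1 member lay above all controls, against 15.0%. Without anti-PD-L1 replicate 2 the count below was also 5 (30.7%), with 4 members above (26.3%). It was 10, all in the cap, without Control IgG replicate 2 (13.7%). It was 7, with 2 in the core, without Control IgG replicate 3 (15.1%). It was 27, with 10 in the core, without anti-PD-L1 replicate 1 (20.9%), and 27 without both libraries numbered 1 (31.7%). Taken singly, anti-PD-L1 replicate 2 lay below every control for 27 of 36 members, against 20.9% of all tested genes, and above every control for 0, against 21.7%. Anti-PD-L1 replicate 1 lay below for 5, against 30.7%, and above for 4, against 26.3%. For subunits of the mature particle alone, summed core CPM was divided by summed cap CPM. The ratio was 1.24, 1.23 and 1.07 in Control IgG replicates 1, 2 and 3. It was 1.27 and 1.20 in anti-PD-L1 replicates 1 and 2, so the groups overlapped.

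**Figure D3:**
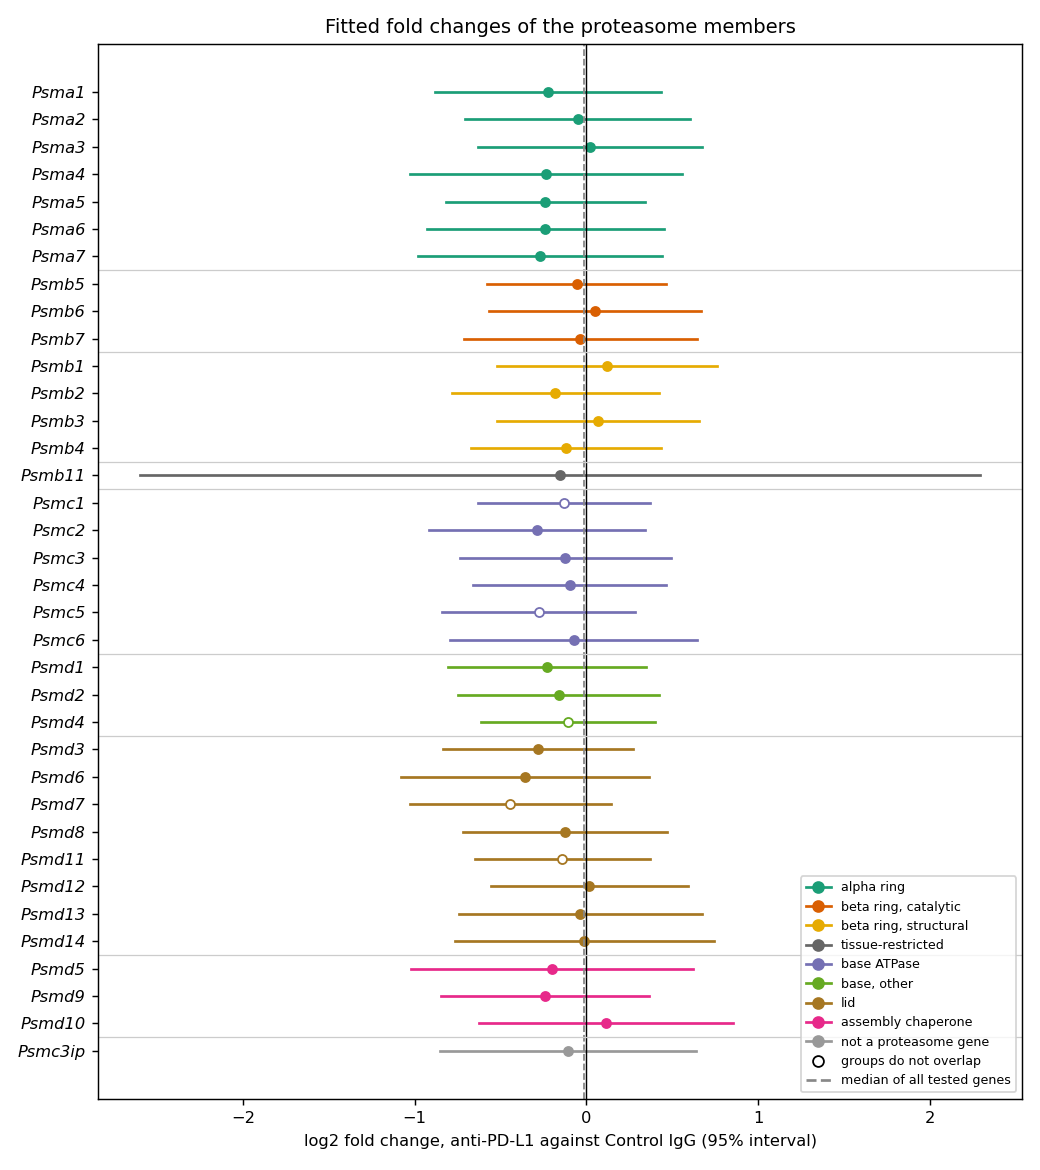
Log2 fold change of each member, anti-PD-L1 against Control IgG (horizontal axis), with the 95% interval of the edgeR fit and colors for role. Every interval spans 0, the dashed line is the median of all tested genes at -0.02, and open circles are the 5 cap members with both anti-PD-L1 libraries below all controls.

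The catalytic subunits had fold changes near 0, and 0 of 3 passed the test. Psmb5, which cuts after hydrophobic residues, stood at 256, 250.4 and 215 CPM in Control IgG replicates 1, 2 and 3 and at 237 and 226 CPM after anti-PD-L1. Both treated values lay inside the control range, and the log2 fold change was -0.06 ± 0.23 (SE), with a 95% interval from -0.58 to 0.46. Psmb6, which cuts after acidic residues, stood at 377, 269.5 and 261 CPM in controls and at 352 and 275 CPM after anti-PD-L1, giving a log2 fold change of 0.05 ± 0.27. Psmb7, which cuts after basic residues, had 238, 174 and 174 CPM in controls and 236 and 145 CPM after anti-PD-L1. Its 2 treated libraries thus stood apart, 1 near the highest control and 1 below the lowest, and its log2 fold change was -0.03 ± 0.30. An exon of Psmb7 overlaps the span of Nek6 on the other strand. The libraries do not mark strand, so reads of the 2 genes may not be told apart. The intervals of Psmb6 and Psmb7 reached from -0.56 to 0.67 and from -0.71 to 0.64.

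Their inducible counterparts were set beside them in the same libraries. Psmb8, which replaces Psmb5, had 1421, 1133 and 1143 CPM in controls and 1558 and 1059 CPM after anti-PD-L1. Per kilobase its level was 2.50 to 3.07 times that of Psmb5 in controls and 3.64 and 2.59 times after anti-PD-L1. Psmb9, which shares its span in part with Tap1 on the other strand, was 0.799 to 0.975 times Psmb6 in controls and 0.986 and 0.904 times after anti-PD-L1. Psmb10 was 0.934 to 1.10 times Psmb7 in controls and 1.05 and 1.09 times after anti-PD-L1. Exons of Psmb8 and Psmb10 also overlap the span of another annotated gene on the other strand, and those of Psmb5 on the same strand. Their reads may likewise not be told apart. For all 3 inducible genes anti-PD-L1 replicate 1 lay above every control and replicate 2 below every control. Log2 fold changes were 0.09 ± 0.27 for Psmb8, 0.14 ± 0.25 for Psmb9 and 0.05 ± 0.27 for Psmb10, and none of the 3 passed edgeR's test, with unadjusted p-values of 0.59 to 0.861. Without anti-PD-L1 replicate 1 all 3 turned negative, at -0.22, -0.12 and -0.32.

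In the alpha ring, 6 of 7 fold changes were below 0, with a median of -0.23, and 0 of 7 passed. Psma7 had 686, 392 and 406 CPM in controls and 439 and 383 CPM after anti-PD-L1, for a log2 fold change of -0.27 ± 0.31. Without Control IgG replicate 1 it was 0.04. Psma5 had the smallest p of the ring, 0.37, with 452, 389 and 316 CPM in controls and 348 and 306 CPM after anti-PD-L1. Psma3 was the exception in sign, with 562, 465 and 365 CPM in controls, 551 and 390.4 CPM after anti-PD-L1, and a log2 fold change of 0.02 ± 0.28. That sign is not firm, since it was -0.01 with library totals in place of TMM factors. All 7 alpha genes were highest in Control IgG replicate 1. Without that library the log2 fold change was -0.11 for Psma5 and 0.18 for Psma3, and the median of the ring was not computed.

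The structural beta subunits went both ways, with 2 of 4 above 0. Psmb1 had the highest fold change of all members, 0.12 ± 0.28, with 585, 432 and 394 CPM in controls and 596 and 428 CPM after anti-PD-L1. Psmb3 followed at 0.07 ± 0.26, Psmb4 stood at -0.12 ± 0.24 and Psmb2 at -0.18 ± 0.26. For Psmb1 and Psmb3 anti-PD-L1 replicate 1 was the highest library, and without it their fold changes were -0.14 and -0.19.

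**Figure D4:**
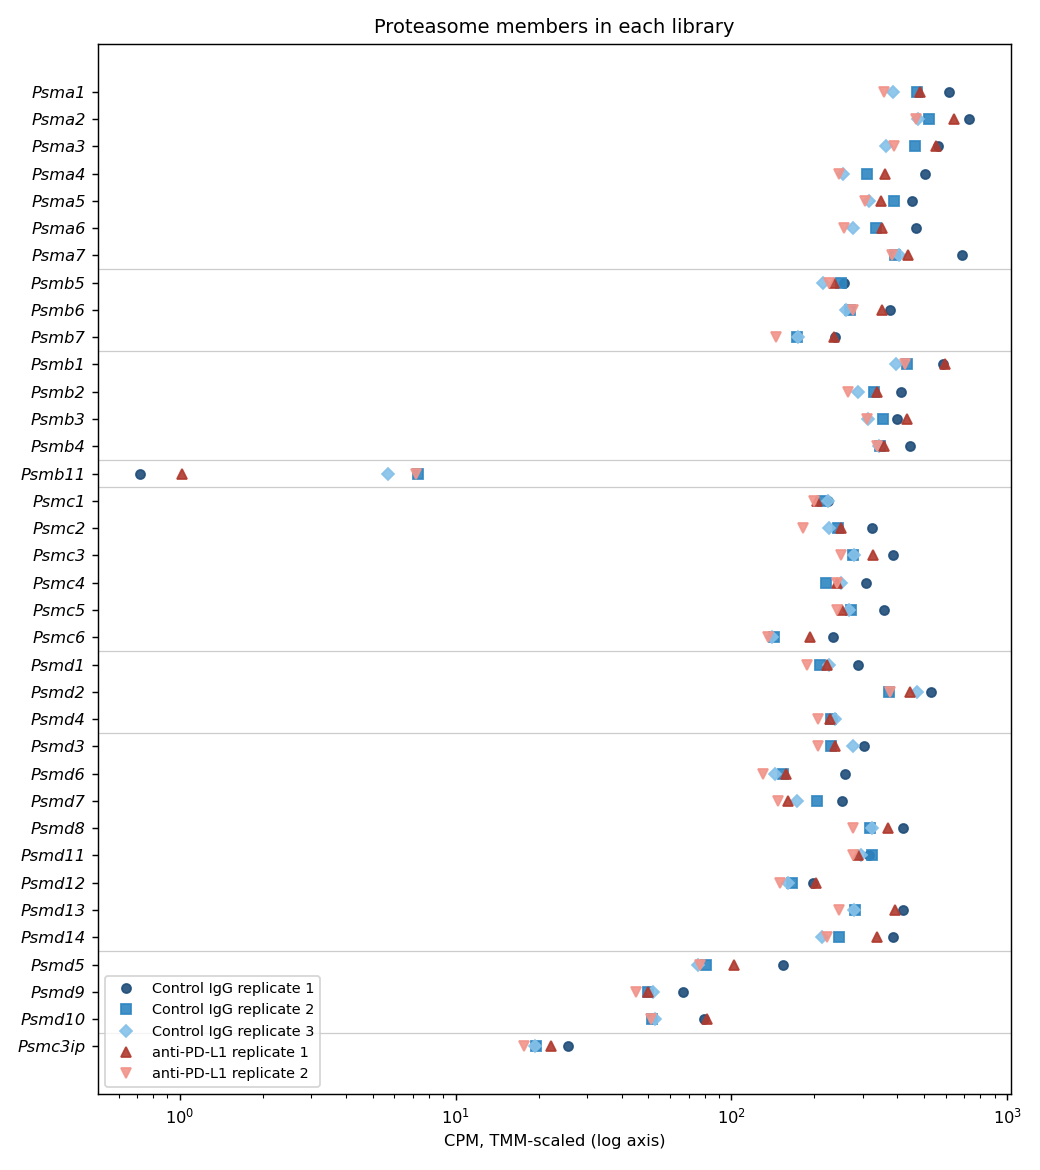
CPM of each member (log axis) in the 3 Control IgG libraries (circle, square and diamond) and the 2 anti-PD-L1 libraries (upward and downward triangles), ordered by role. Control IgG replicate 1 lies at the right for 29 of 36 members and anti-PD-L1 replicate 2 at the left for 27, while Psmb11 is lower in both libraries numbered 1.

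In the base of the cap, the 6 ATPases all had fold changes below 0, with a median of -0.13 and 0 past the threshold. Psmc1 was among the steadiest members, at 224, 215 and 223 CPM in controls and 205 and 199 CPM after anti-PD-L1. Both treated values lay below the controls by a small step, and the log2 fold change was -0.13 ± 0.22. Its controls varied by 2.23% (coefficient of variation), against a median of 18.9% over the members and 25.8% over all tested genes. Psmc5 had 357, 273 and 267 CPM in controls and 251 and 242 CPM after anti-PD-L1, giving a log2 fold change of -0.28 ± 0.24 at an unadjusted p of 0.29. Psmc2 had -0.29 ± 0.27, the lowest of the ATPases, with anti-PD-L1 replicate 1 inside the control range. Psmc6 was nearest to 0 at -0.07 ± 0.31, and it turned to 0.21 without Control IgG replicate 1.

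The non-ATPase genes of the base bind ubiquitin or hold its receptors. Psmd4, a ubiquitin receptor, had 232, 229 and 239 CPM in controls and 227 and 206 CPM after anti-PD-L1. Its groups did not overlap, but the nearest values, 229 and 227 CPM, almost met, and the log2 fold change was -0.11 ± 0.22. The scaffold Psmd2 had 529, 374 and 472 CPM in controls and 444 and 375 CPM after anti-PD-L1, giving a log2 fold change of -0.16 ± 0.25. The other scaffold, Psmd1, had -0.23 ± 0.25, and for both the groups overlapped.

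The lid, which holds the enzyme that removes ubiquitin, had 7 of 8 fold changes below 0, a median of -0.13 and 0 past the threshold. Psmd7, the partner of the deubiquitinase, had the lowest fold change of all members, -0.44 ± 0.25, with an interval from -1.03 to 0.14. It stood at 252, 204 and 173 CPM in controls and at 160.0 and 148 CPM after anti-PD-L1, so its groups did not overlap. With 1 library left out its log2 fold change ran from -0.57 to -0.29. Psmd7 lies on chromosome 8 from 107580381 to 107588464 on GRCm38. Psmd14, the deubiquitinase itself, had 386, 246 and 212 CPM in controls and 336 and 222 CPM after anti-PD-L1, and its log2 fold change of -0.01 ± 0.33 was the closest to 0 of all members. It was 0.01 with DESeq2, with limma-voom and with relative log expression factors. The fold changes of these partners were not tested against each other. Psmd11 had 314, 324 and 294 CPM in controls and 289 and 276 CPM after anti-PD-L1, giving a log2 fold change of -0.14 ± 0.22. Psmd3 had -0.28 ± 0.24 with anti-PD-L1 replicate 1 inside the control range, and Psmd12 was the single lid gene above 0 at 0.02 ± 0.25.

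None of the 5 members outside the mature particle passed the test either. Psmd5 had -0.20 ± 0.36, Psmd9 -0.24 ± 0.26 and Psmd10 0.11 ± 0.32, while Psmc3ip, at 17.7 to 25.6 CPM, had -0.11 ± 0.32. Psmb11 differed in its pattern over libraries. It had 8, 78 and 74 counts in Control IgG replicates 1, 2 and 3 and 11 and 96 counts after anti-PD-L1, or 0.715, 7.29, 5.67, 1.02 and 7.16 CPM. Both libraries numbered 1 were thus several times below the other 3, and the log2 fold change was -0.15 ± 1.06. Psmb11 lies on chromosome 14 from 54621433 to 54629556 on the plus strand, next to Psmb5 at 54614119 to 54618022 on the minus strand. Reads assigned to no feature moved in the same way. They made up 9.02% and 7.46% of counts in the libraries numbered 1 and 11.2% to 15.2% in the others. Their part in the Psmb11 counts was not tested.

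Genes that build, regulate or feed the proteasome also gave 0 calls in edgeR's test. Of the 8 listed assembly chaperones, which include Psmd5, Psmd9 and Psmd10, 7 had fold changes below 0, with a median of -0.22 that became -0.030 without Control IgG replicate 1 and -0.32 without anti-PD-L1 replicate 1. Psmg1, which helps to build the alpha ring, had 90.1, 67.5 and 61.0 CPM in controls and 40.7 and 53.2 CPM after anti-PD-L1. Both treated libraries lay below all controls, with a log2 fold change of -0.63 ± 0.29 at an unadjusted p of 0.058. Psmg3, of the same ring-building set, also lay below all controls, at -0.37 ± 0.27. All 5 activators and inhibitors of the core were below 0, with a median of -0.30 (-0.30 without Control IgG replicate 1 and -0.27 without anti-PD-L1 replicate 1). Psme3, which encodes the nuclear activator, had 238, 133 and 87.3 CPM in controls and 97.1 and 81.2 CPM after anti-PD-L1, giving a log2 fold change of -0.78 ± 0.41. Without Control IgG replicate 1 the fold change was -0.31. Psme1, a subunit of the interferon-inducible activator, had -0.40 ± 0.24 with both treated libraries below all controls.

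Cap-associated receptors, deubiquitinases and adaptors had a median of -0.11 over 14 genes, with 5 above 0. The median was 0.025 without Control IgG replicate 1 and -0.16 without anti-PD-L1 replicate 1. The 2 of smallest p were AI314180, the Ecm29 adaptor, at -0.55 ± 0.36 and the shuttle factor gene Ubqln2 at 0.49 ± 0.46, which without anti-PD-L1 replicate 1 were -0.18 and 0.059. The list around Nfe2l1, whose product activates proteasome genes when degradation fails, had a median of -0.02 over 12 genes, with 5 above 0. Without Control IgG replicate 1 it was -0.18, and without anti-PD-L1 replicate 1 it was 0.053. In it, Nfe2l2, which encodes the related stress factor, had 38.6, 28.8 and 30.0 CPM in controls and 21.4 and 21.2 CPM after anti-PD-L1, giving a log2 fold change of -0.61 ± 0.30 at an unadjusted p of 0.0763. Sel1l, part of the channel that exports misfolded proteins from the endoplasmic reticulum, had 0.53 ± 0.32, and 0.27 without anti-PD-L1 replicate 1. Ubiquitin genes and activating enzymes had a median of 0.01 over 8 genes, with 4 above 0, and the 2 of smallest p were the ubiquitin fusion gene Rps27a at -0.24 ± 0.29 and the activating enzyme gene Uba6 at 0.22 ± 0.30. That median was 0.19 without Control IgG replicate 1 and -0.22 without anti-PD-L1 replicate 1.

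As comparison lists, the CCT chaperonin had 8 of 8 fold changes below 0 with a median of -0.48, and ribosomal proteins 68 of 81 with a median of -0.17, against -0.13 for the proteasome. Without Control IgG replicate 1 the medians were -0.17 for CCT, 0.044 for ribosomal proteins and 0.017 for the proteasome. Without anti-PD-L1 replicate 1 they were -0.48, -0.12 and -0.32, and without both libraries numbered 1 they were -0.21, 0.073 and -0.16. Both anti-PD-L1 libraries lay below all controls for 6 of 8 CCT genes, 8 of 81 ribosomal protein genes and 5 of 36 proteasome members, where 9.58% of all tested genes did. Cct5 had -0.55 ± 0.28 and Cct4 -0.56 ± 0.33, and Rpl14 had -0.43 ± 0.28 and Rps4x -0.36 ± 0.24 among the ribosomal proteins. Without Control IgG replicate 1 these 4 values were -0.30, -0.22, -0.21 and -0.27. No test set these lists against each other.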

How the data were processed

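Whole-number read counts per gene symbol were deposited by the authors for 3 Control IgG and 2 anti-PD-L1 libraries, without normalization. TopHat and HTSeq are named with build mm10, per the submitters' processing notes, and the sources used here give no versions, annotation, strand setting or handling of multiply mapped reads. Per the labels' protocols, poly(A) RNA of 5000 to 30000 sorted cells went through a changed Smart-seq2 amplification of 8 and 12 PCR cycles, which marks neither strand nor molecule. For 11 members an exon overlaps the span of another annotated gene, so their reads may not be told apart. Counter lines were left out: reads without a feature made up 7.46% to 15.2% of counts and ambiguous reads 1.38% to 1.51%. Groups and replicate numbers came from the labels. Chi-square values divided by their degrees of freedom ran, between pairs of libraries, from 19.2 to 92.3, so none was a copy.

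Fits used edgeR 4.0.16 in R 4.3.3 (quasi-likelihood F-test, two-sided, TMM, filterByExpr with a minimum count of 10 and total of 15, Benjamini-Hochberg over 11299 genes, threshold 0.05), tested on simulated data. The standard error is the fold change divided by the square root of F. Log2 CPM used a prior count of 2. Gene lengths and coordinates came from GENCODE vM21 (GRCm38), using exons of coding transcripts. Alternatives used DESeq2 1.42.0, limma 3.58.1 (voom), other scalings, no low-count filter, a replicate block and libraries left out. A floor of 3 counts is 0.224 to 0.280 CPM. The 95% intervals come from the edgeR fit, which estimates variation between libraries from these 5 libraries. Members and lists were chosen with earlier results of these data known. 1 gene of the lists is not reported here. Of the list symbols, 4 were not among the listed genes (Ufd1, Sem1 and Ecpas are listed under older symbols). Named genes were the catalytic and inducible beta subunits, Psmd4, Psmd14, in each role the members of highest and lowest fold change, of highest and lowest level per length and the 2 of smallest p, members whose groups did not overlap, members outside the mature particle, and the 2 genes of smallest p per pathway list. Psma4, Psmd6 and Psmd8 fall outside this rule and were named after their values were seen, and Nfe2l1, Nek6 and Tap1 are named without values.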

Additional observations from a re-analysis of the deposited data

How the results depend on the processing

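No member was called under any alternative. DESeq2 called 4 genes, a fit without the low-count filter 5, a fit without both libraries numbered 1 called 1, and limma-voom 0. Of 44 named genes, 23 kept their direction in every alternative run and 21 changed sign in at least 1. The cause was not tested. With 1 library left out, members below 0 ran from 16 to 35, against 48.8% to 54.4% of all tested genes. Members with both groups apart and anti-PD-L1 lower ran from 5 to 27, against 13.7% to 30.7% of all tested genes. Without both libraries numbered 1 that count was 27, against 31.7%. With 1 library left out, the member median log2 fold change ran from -0.32 to 0.02 and the core median from -0.30 to 0.04. The inducible median ran from -0.22 to 0.37 (-0.12 without both libraries numbered 1) and the median around Nfe2l1 from -0.27 to 0.16. Log2 fold changes that changed sign with 1 library left out ran as follows: Psma3 -0.25 to 0.28, Psma7 -0.41 to 0.041, Psmb1 -0.14 to 0.37, Psmb10 -0.32 to 0.37, Psmb11 -2.12 to 0.65, Psmb2 -0.37 to 0.016, Psmb3 -0.19 to 0.32, Psmb4 -0.19 to 0.019, Psmb5 -0.13 to 0.0082, Psmb6 -0.14 to 0.25, Psmb7 -0.43 to 0.31, Psmb8 -0.22 to 0.37, Psmb9 -0.12 to 0.39, Psmc3ip -0.28 to 0.081, Psmc6 -0.35 to 0.21, Psmd10 -0.27 to 0.45, Psmd12 -0.21 to 0.25, Psmd14 -0.34 to 0.29, Psmd5 -0.42 to 0.20 and Rps27a -0.36 to 0.028. Without both libraries numbered 1 the reversed values were Psma3 -0.099, Psmb10 -0.23, Psmb11 0.13, Psmb3 -0.11, Psmb8 -0.12, Psmb9 -0.045, Psmd10 -0.046, Psmd12 -0.13, Rps27a 0.074 and Ubqln2 -0.10. With library totals Psma3 was -0.010 and Psmd12 -0.017, and Psmd14 was 0.0057 with DESeq2, 0.0072 with relative log expression factors and 0.0065 with limma-voom. The libraries share replicate numbers but nothing shows that the numbers pair them. With only 2 pairs, deviations of same-numbered libraries correlated at 0.33 and 0.37 across genes, which are not independent. A replicate block called 0 genes in edgeR, with Psmd7 at an unadjusted p of 0.0345 (adjusted p of 0.819), 33 of 36 members below 0, and reversed values for Psma3 (-0.14), Psmb11 (0.21), Psmb3 (-0.035), Psmb6 (-0.035) and Psmd12 (-0.049). Member standard errors of 0.22 to 0.36, apart from Psmb11, set the differences that 5 libraries can show.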
